A study of Homo sapiens with 9 samples.

Results

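Mitosis is run by a small machinery whose genes are transcribed together late in the cell cycle. The 42 genes described here encode the cyclins and kinases that drive mitosis, the kinetochore and spindle that move the chromosomes, the checkpoint that delays anaphase, and the proteins that finish cell division. They were chosen by name from the deposited table of 57773 genes, and all 42 were found and passed the filter for testing, among 15208 genes tested. RNA was sequenced from OVCAR-8, an established human ovarian cancer cell line, 48 h after siRNA transfection. The 9 libraries form 3 groups of 3. The first group received a control siRNA against luciferase, an insect enzyme without a target in these cells. The others received CDK12-2 or CDK12-6, independent siRNAs against CDK12, a kinase that phosphorylates the tail of RNA polymerase II during elongation and is needed for full-length transcription of many long genes. Each group holds 1 library numbered AK39, 1 numbered AK41 and 1 numbered AK49, and the labels do not say what the numbers stand for. The submitters describe the libraries of a group as technical replicates. Each p-value here thus measures the spread between such libraries of a single cell line. It cannot be taken as the spread between separate cultures.

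In dividing cells, cyclin B with the kinase CDK1 starts mitosis, Aurora and Polo-like kinases build the spindle, and the kinetochore links each chromosome to spindle microtubules. The spindle assembly checkpoint holds back the anaphase-promoting complex, a ubiquitin ligase, until every chromosome is attached. CDC20 then directs that ligase to securin and cyclin B, separase opens the cohesin rings, and the central spindle guides cytokinesis. Promoters of such genes commonly carry CCAAT boxes, which NF-Y binds, and a cell cycle genes homology region, or CHR, through which MuvB complexes repress them in quiescent cells and activate them in G2 and mitosis.

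The promoters of the listed genes shared these elements. RefSeq promoter windows from 250 bases before to 50 bases after the start (build GRCh38.p14) were on hand for 36 of the 42 genes, with SGOL1 under its newer symbol SGO1, and no window was used for FOXM1, AURKA, BUB3, TTK, BIRC5 and TPX2. A CHR-type hexamer, TTTGAA or TTCGAA on either strand, was found in 27 of the 36, or 75.0%, against 16.4% of all 35116 listed promoters and 11.6% of the 12531 that belong to tested genes. CCAAT on either strand was found in 30, or 83.3%, against 34.6% and 34.8%. Both elements occurred in 23, or 63.9%, against 6.4% and 4.7%. The motifs can share an end base, as at CDCA8, where a hexamer begins 23 bases and a CCAAT box 18 bases before the start. A match describes letters in the window only. Of the 6 genes that rose with CDK12 siRNA, 5 held a CHR-type hexamer and 5 a CCAAT box. Of the 30 listed genes with a window that did not pass the test, 22 held the hexamer and 25 the box.

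The following windows run 5′ to 3′ from 100 bases before the start to 50 after it, with CHR-type hexamers and CCAAT boxes of either strand in capitals. CCNB2 and PLK1 are shown because both have TTTGAA 29 bases before the start, and CCNB2 rose while PLK1 did not pass the test. CENPF and NDC80 are shown as the genes with the largest fold changes among the 42, and CDC20 as the one with the lowest.
CCNB2, chr15:59105046-59105195, plus strand: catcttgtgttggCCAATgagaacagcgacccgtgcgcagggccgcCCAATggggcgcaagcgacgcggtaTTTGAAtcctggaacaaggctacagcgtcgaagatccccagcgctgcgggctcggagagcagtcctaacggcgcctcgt
PLK1, chr16:23678789-23678938, plus strand: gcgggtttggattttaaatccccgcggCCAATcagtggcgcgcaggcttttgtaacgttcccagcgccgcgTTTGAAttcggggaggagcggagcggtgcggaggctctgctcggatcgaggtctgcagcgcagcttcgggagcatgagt
CENPF, chr1:214603095-214603244, plus strand: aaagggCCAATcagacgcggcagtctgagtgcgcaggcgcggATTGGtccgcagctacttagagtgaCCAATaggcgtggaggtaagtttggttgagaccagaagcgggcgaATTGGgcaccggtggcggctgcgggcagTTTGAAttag
NDC80, chr18:2571457-2571606, plus strand: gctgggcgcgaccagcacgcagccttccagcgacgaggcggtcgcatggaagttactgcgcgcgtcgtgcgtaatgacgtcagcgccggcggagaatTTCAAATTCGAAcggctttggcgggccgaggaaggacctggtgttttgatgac
CDC20, chr1:43358881-43359030, plus strand: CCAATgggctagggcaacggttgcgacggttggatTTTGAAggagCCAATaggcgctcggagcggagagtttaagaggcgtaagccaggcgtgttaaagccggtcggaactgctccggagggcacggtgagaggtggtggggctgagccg

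The CENPF window held 4 CCAAT boxes, and its hexamer lay 40 bases after the start. The NDC80 window held no CCAAT box and had its hexamers 3 bases before and 3 bases after the start. KIF20A, which also rose, had CCAAT boxes 67 and 94 bases before the start and no CHR-type hexamer.

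Levels are given as RPKM as the authors deposited them, which are reads scaled to a kilobase of gene length and to 1000000 reads of the library. The targeted gene, CDK12, stood at 8.33, 7.09 and 8.4 RPKM in the luciferase libraries AK39, AK41 and AK49, at 2.06, 2.57 and 2.7 with CDK12-2, and at 2.09, 2.37 and 2.75 with CDK12-6. No control library was as low as any library from CDK12 siRNA, and the mean was 69.5% lower (log2 fold change -1.39 ± 0.0953 SE, limma, adjusted p = 1.5e-05). Libraries held 104963048 to 131472019 reads in listed genes, and a listed mitotic gene rested on 2448 to 100388 reads in a library. Over all genes with enough reads to compare, reads differed between libraries of a group by more than counting error gives. The chi-square per degree of freedom was 12.5 to 128.4, where counting error alone gives about 1. It was not computed for the listed genes alone. In each group 1 library held the most reads from transcripts that lack a poly(A) tail: luciferase AK41 at 670.5 per 1000000 reads, CDK12-2 AK39 at 897.6 and CDK12-6 AK39 at 872.6, against 181.6 to 594.4 in the other 6. Epithelial keratins were abundant, with KRT8 at 225.1 ± 13 RPKM (SD, n = 3) and KRT18 at 166.2 ± 24 in the controls, while MUC16 and KRT19 were near 0. CD3E and DCN, markers of T cells and fibroblasts, were at 0 in the controls and PTPRC at 0.0259 RPKM, while COL1A1 stood at 18.2 and CD68 at 15.4 ± 1.39, the latter falling to 4.54 ± 0.67 (n = 6).

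All 42 genes were expressed above the median tested gene in the controls. TPX2, which activates Aurora A on the spindle, had the highest level at 113.9 ± 14 RPKM (SD, n = 3), on the 98.1 percentile of tested genes. CCNB1, ANLN and CDC20 followed at 88.9 ± 8.21, 82 ± 12.4 and 81.2 ± 13.2, and these 3 did not differ beyond their spread. SGOL1, at 8.45 ± 0.547, and ESPL1, at 7.39 ± 1.53 and the 59.7 percentile, were the lowest. The sum over the 42 genes was 1531.7 ± 35.2 RPKM with luciferase and 1615.5 ± 75.6 (n = 6) with CDK12 siRNA, and the ranges, 1507.7 to 1572.1 and 1494.1 to 1706.8, overlapped.

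With CDK12 siRNA, 6 of the 42 genes rose and none fell. In RNA from whole cultures, a larger share of cells in G2 or mitosis and more RNA in each such cell cannot be told apart. The comparison set the mean of both siRNAs against luciferase on the scale log2(RPKM + 1). It used limma across all tested genes, with Benjamini-Hochberg adjustment at a threshold of 0.05. This fit took the 6 CDK12 siRNA libraries as independent. Same-numbered libraries of both siRNAs deviated together from their group means for AK39 and AK49 (correlation 0.76 and 0.81), but hardly for AK41 (0.13). The SE and p-values for the mean of both siRNAs may thus be too small. Called genes made up 14.3% of the list, and all were higher. Over all tested genes, 13.3% were called higher and 19.7% lower, or 33.0% in either direction. The share of listed genes called higher was thus close to that of all genes, and no listed gene was called lower. The median log2 fold change was 0.04 over the list, with 25 genes above 0 and 17 below and a range from -0.44 to 0.53, and -0.04 over all tested genes. At an unadjusted p below 0.05 there were 11 of the 42, beside 6544 of the 15208 tested genes. Rescaled to each library's reads in listed genes, 11 of the 42 were higher and 1 lower, with quantile normalization 12 and 1, and with TMM scaling 5 and 2. Over all genes these scalings gave 3392 higher and 3148 lower, 3255 and 3341, and 2548 and 4233, beside 2027 and 2997 as deposited.

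**Figure D1:**
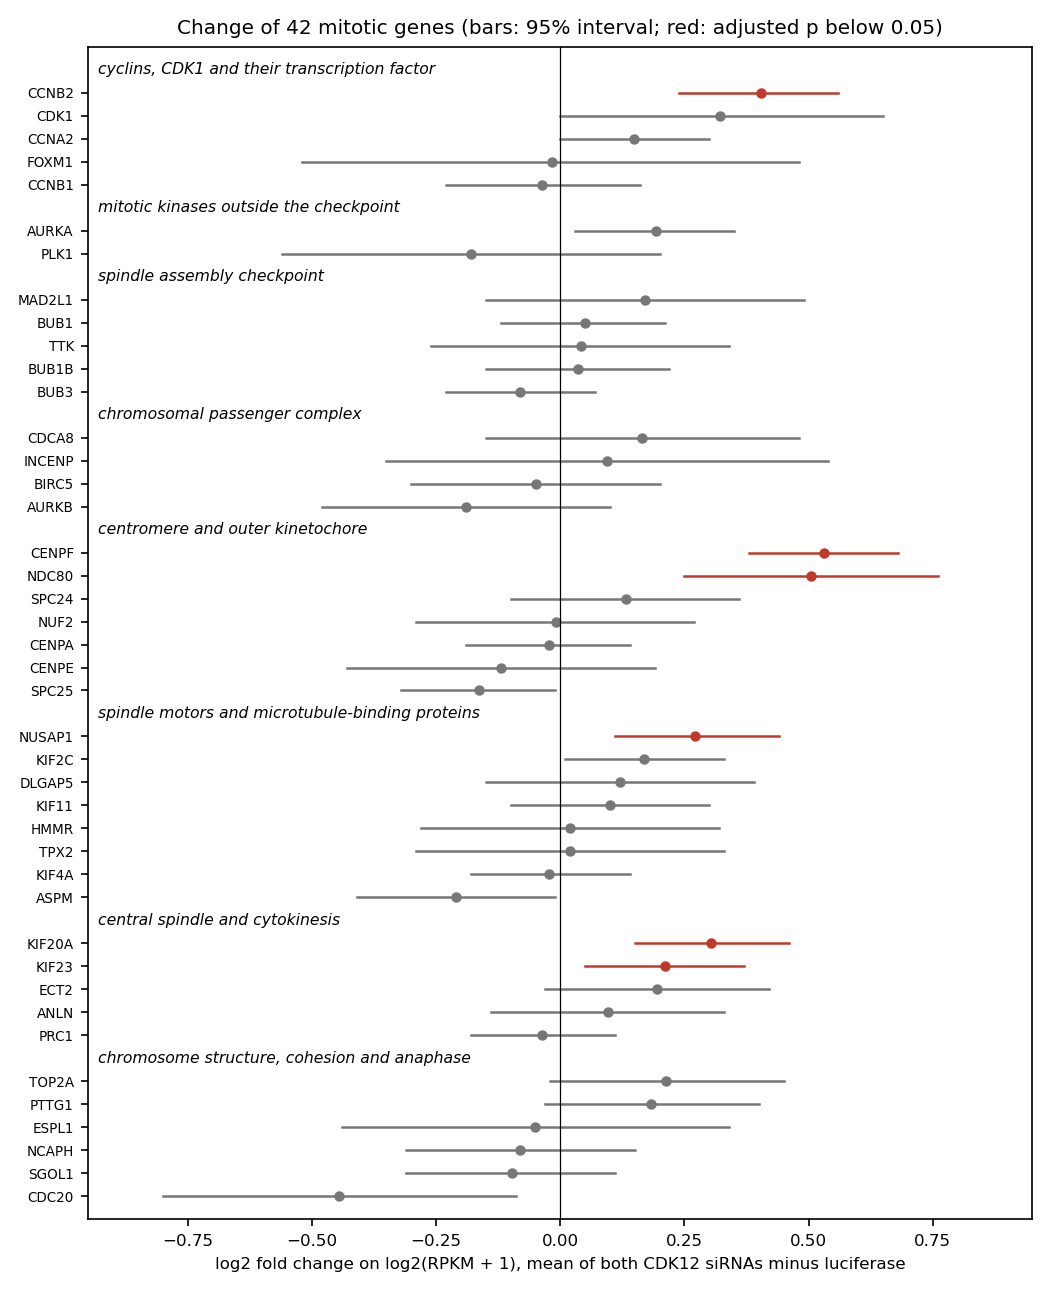
Log2 fold change of each of the 42 genes (x axis, on log2(RPKM + 1), mean of both CDK12 siRNAs minus luciferase, 6 against 3 libraries), grouped by role on the y axis, with 95% confidence intervals as bars. The 6 genes in red passed the test, from KIF23 at 0.21 to CENPF at 0.53, and CDC20 at the bottom has the lowest value.

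Among the cyclins, CDK1 and their transcription factor, 1 of 5 passed. CCNB2, cyclin B2, a partner of CDK1 (ENSG00000157456, chromosome 15 from 59397277 to 59417244 in hg19), had 39.3, 40.3 and 38 RPKM in luciferase AK39, AK41 and AK49, 47.2, 52.3 and 54.1 with CDK12-2, and 51.6, 56.1 and 52.3 with CDK12-6. All 6 CDK12 siRNA libraries lay above all 3 controls. The log2 fold change was 0.41 ± 0.0714 (SE; adjusted p = 0.0023), and each siRNA alone passed as well (0.38 and 0.43, adjusted p = 0.0093 and 0.0045). Without the AK41 libraries of all groups the gene no longer passed (adjusted p = 0.074). CDK1, the kinase itself, had 33.2, 45.6 and 33.6 RPKM in the controls, 49.1, 45.3 and 40.4 with CDK12-2, and 53.1, 55.7 and 38.1 with CDK12-6. Control AK41 lay within the range of the CDK12 siRNA libraries, and the change of 0.32 ± 0.145 did not pass (adjusted p = 0.12). It passed in 4 of the 22 alternative fits, among them those without luciferase AK41 (0.47, adjusted p = 0.039) and without CDK12-6 AK49 (0.41, 0.026). CCNB1, cyclin B1, was nearly level at 88.9 ± 8.21 and 86.6 ± 5.9 RPKM (-0.04 ± 0.087, adjusted p = 0.79). CCNA2, cyclin A2, stood at 63.4 ± 0.889 and 70.5 ± 3.35 RPKM without overlap (0.15, adjusted p = 0.13). FOXM1, the factor that transcribes many G2 and mitotic genes, had 48.5 ± 10.6 and 48.4 ± 12.4 RPKM (-0.02 ± 0.223, adjusted p = 0.96), with a 95% interval from -0.52 to 0.48.

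Neither mitotic kinase outside the checkpoint passed. AURKA, the Aurora kinase of centrosomes and spindle poles, had 45.9, 47 and 45.9 RPKM in the controls, 48.4, 55 and 55.8 with CDK12-2, and 51.1, 54.5 and 53.6 with CDK12-6. The groups did not overlap, and the change of 0.19 ± 0.0709 missed the threshold (adjusted p = 0.063). It passed in 6 of the 22 alternative fits, among them the fit without CDK12-2 AK39 (0.22, adjusted p = 0.022) and quantile normalization (0.26, 0.0029). PLK1, the Polo-like kinase needed for centrosome maturation and cytokinesis, had 21.8, 16.1 and 22 RPKM in the controls, 14.2, 17.9 and 21.9 with CDK12-2, and 13.7, 16.4 and 21.9 with CDK12-6. Its groups overlapped, and in each group the lowest value was that of the library richest in RNAs without a poly(A) tail (-0.18 ± 0.171, adjusted p = 0.46).

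None of the 5 spindle assembly checkpoint genes passed, and their log2 fold changes lay between -0.08 and 0.17. MAD2L1, which binds and holds CDC20, had 27.9, 36.1 and 26.4 RPKM in the controls, 35.8, 32.9 and 29.2 with CDK12-2, and 38.5, 40.4 and 27.5 with CDK12-6. The groups overlapped (0.17 ± 0.142, adjusted p = 0.39). BUB3, an adaptor that brings checkpoint proteins to the kinetochore, had 46.3, 48.5 and 46.8 RPKM in the controls, 41.7, 45.7 and 45.9 with CDK12-2, and 44.8, 46.6 and 42.9 with CDK12-6. Here too the groups overlapped (-0.08 ± 0.0672, adjusted p = 0.39). The checkpoint kinases BUB1 (0.05) and TTK (0.04) and the inhibitor subunit BUB1B (0.04) had adjusted p-values of 0.66, 0.85 and 0.78. The 95% intervals of BUB1, BUB1B and BUB3 stayed within 0.3 log2 units of 0, while that of TTK ran from -0.26 to 0.34.

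The chromosomal passenger complex carries the kinase Aurora B to centromeres and the midzone, and none of its 4 genes passed. AURKB, the kinase, had 25.3, 19.9 and 25.3 RPKM in the controls, 17, 20.6 and 24.3 with CDK12-2, and 17.8, 19.9 and 23.5 with CDK12-6 (-0.19 ± 0.131, adjusted p = 0.30). CDCA8, borealin, a targeting subunit, had 37.2, 29.7 and 37 RPKM in the controls, 31.5, 41.9 and 46 with CDK12-2, and 32.3, 39 and 44.4 with CDK12-6 (0.17 ± 0.142, adjusted p = 0.41). Both genes overlapped between groups. The scaffold INCENP had 18.2 ± 3.69 and 19.7 ± 4.71 RPKM and the targeting subunit BIRC5, survivin, 40.8 ± 5.23 and 39.4 ± 4.05 (adjusted p = 0.75 and 0.78). BIRC5 shares its span with AC087645.1, whose reads came to 72.4% of those of BIRC5.

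Kinetochore genes held the highest fold changes. CENPF, a large microtubule-binding protein of the outer kinetochore and nuclear envelope (ENSG00000117724, chromosome 1 from 214776538 to 214837931 in hg19), had 13.3, 13.6 and 13.4 RPKM in the controls, 18.6, 20.7 and 21.7 with CDK12-2, and 19.1, 20 and 19.3 with CDK12-6. Its controls were the tightest of the list in SD, at 0.164 RPKM, and every CDK12 siRNA library was above them. The mean was 1.48 times the control mean, and the log2 fold change was 0.53 ± 0.0685 (adjusted p = 0.00039). It passed with each siRNA (0.56 and 0.50, adjusted p = 0.00096 and 0.0017) and in all 22 alternative fits of the comparison.

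NDC80, the subunit that names the main microtubule-binding complex of the kinetochore (ENSG00000080986, chromosome 18 from 2571510 to 2616634), had 18.8, 24.9 and 19 RPKM in the controls, 29.3, 29.6 and 27.4 with CDK12-2, and 32.8, 34.9 and 26 with CDK12-6. The lowest CDK12 siRNA library, CDK12-6 AK49, lay just above the highest control, AK41. The log2 fold change was 0.51 ± 0.116 (adjusted p = 0.0088), with 0.45 and 0.56 for the single siRNAs (adjusted p = 0.034 and 0.014). It was lost without luciferase AK39 (adjusted p = 0.054) or without all AK39 libraries (0.12). The other subunits of the complex did not pass. NUF2, the direct partner of NDC80, had 15.4, 20.4 and 15.2 RPKM in the controls, 17.3, 16.5 and 15.1 with CDK12-2, and 18.7, 19.4 and 14.1 with CDK12-6, with overlap (-0.01 ± 0.124, adjusted p = 0.97). SPC24 had 14.4 ± 0.917 and 16 ± 1.9 RPKM (0.13, adjusted p = 0.36) and SPC25 11.6 ± 0.434 and 10.3 ± 0.618 (-0.16, adjusted p = 0.10). CENPE, a kinetochore motor (-0.12, adjusted p = 0.55), and CENPA, the histone variant that marks centromeres (-0.02, adjusted p = 0.85), made up the rest of the group, in which 2 of 7 passed.

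**Figure D2:**
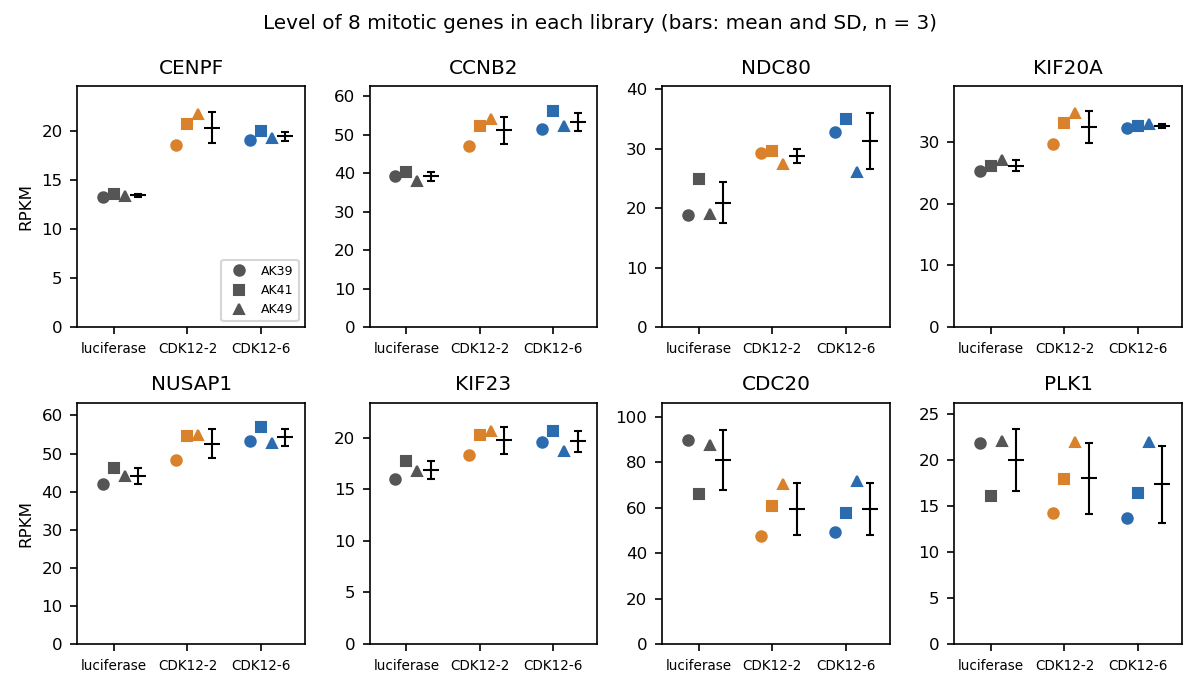
RPKM (y axis) in each of the 9 libraries for the 6 genes that rose and for CDC20 and PLK1, by group (x axis), with the AK number as the symbol and mean and SD (n = 3) as the bar beside each group. CENPF runs from 13.3 to 13.6 in the controls and from 18.6 to 21.7 with CDK12 siRNA, while the groups of CDC20 and PLK1 overlap.

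Of the 8 spindle motors and microtubule-binding proteins, 1 rose. NUSAP1, which bundles spindle microtubules near chromosomes (ENSG00000137804, chromosome 15 from 41624892 to 41673248), had 42.1, 46.2 and 44.1 RPKM in the controls, 48.3, 54.7 and 54.9 with CDK12-2, and 53.2, 56.9 and 52.7 with CDK12-6. The groups did not overlap, and the change was 0.27 ± 0.0735 (adjusted p = 0.019). CDK12-6 alone passed (adjusted p = 0.031) and CDK12-2 alone did not (0.058), although the siRNAs differed by only -0.04 log2 units (95% interval -0.23 to 0.15). The call was lost without luciferase AK39, luciferase AK49 or CDK12-2 AK41, and without all libraries of any 1 AK number, where the change was 0.24 to 0.27. KIF2C, a kinesin that depolymerizes microtubules at centromeres, had 35, 39.4 and 37.1 RPKM in the controls, 39.9, 40.4 and 43.9 with CDK12-2, and 41.5, 43.8 and 41.7 with CDK12-6. Its groups did not overlap, at 0.17 ± 0.0699 (adjusted p = 0.092). ASPM, which focuses spindle poles, was the 1 listed gene with every CDK12 siRNA library below every control. It had 19.5 ± 2.43 and 16.7 ± 1.03 RPKM and did not pass (-0.21, adjusted p = 0.10). ASPM passed as lower in 2 of the 22 alternatives. These were the block on the AK number (adjusted p = 0.043) and RNA without a poly(A) tail as a covariate (0.003). The bipolar-spindle motor KIF11, the chromosome motor KIF4A, TPX2, DLGAP5 and HMMR, which stabilize spindle microtubules, had log2 fold changes from -0.02 to 0.12 and adjusted p-values from 0.43 to 0.93.

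The central spindle and cytokinesis group had 2 of 5 genes rise. KIF20A, a kinesin that brings Polo-like and Aurora B kinase activity to the midzone (ENSG00000112984, chromosome 5 from 137514408 to 137523404), had 25.3, 26.1 and 27 RPKM in the controls, 29.6, 33 and 34.6 with CDK12-2, and 32.2, 32.6 and 32.9 with CDK12-6. Groups were apart, and the change was 0.30 ± 0.0699 (adjusted p = 0.0091), with adjusted p = 0.024 and 0.021 for the single siRNAs. It was lost without luciferase AK39 (0.054), all AK41 libraries (0.16) or all AK49 libraries (0.055). Its span overlaps BRD8 and CDC23, whose reads came to 49.3% and 38.5% of those of KIF20A, and the kit does not mark strand, so shared reads cannot be told apart.

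KIF23, the motor subunit of centralspindlin (ENSG00000137807, chromosome 15 from 69706585 to 69740764), had 16, 17.8 and 16.8 RPKM in the controls, 18.3, 20.3 and 20.7 with CDK12-2, and 19.6, 20.7 and 18.7 with CDK12-6. No libraries overlapped, and the change of 0.21 ± 0.0724 passed narrowly (adjusted p = 0.049). Neither siRNA passed alone (adjusted p = 0.092 and 0.097), and the call was kept in 7 of the 22 alternatives, with adjusted p-values from 0.0081 to 0.26. It was lost on leaving out luciferase AK39, AK41 or AK49, CDK12-2 AK41 or AK49, CDK12-6 AK39 or AK41, or all libraries of any 1 AK number, at log2 fold changes of 0.18 to 0.25. ECT2, the exchange factor that activates RhoA at the cleavage site, had 36.1 ± 4.62 and 41.4 ± 3.56 RPKM (0.20 ± 0.102, adjusted p = 0.18). ANLN, the scaffold of the contractile ring, and PRC1, which bundles midzone microtubules, had changes of 0.10 and -0.04 (adjusted p = 0.52 and 0.72).

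None of the 6 genes of chromosome structure, cohesion and anaphase passed. CDC20, the activator of the anaphase-promoting complex, had 90, 66 and 87.5 RPKM in the controls, 47.6, 60.9 and 70.3 with CDK12-2, and 49.1, 57.8 and 71.6 with CDK12-6 (ENSG00000117399, chromosome 1 from 43824626 to 43828874). Only control AK41, at 66, lay within the CDK12 siRNA range. The mean was 0.734 times the control mean, with a log2 fold change of -0.44 ± 0.159 and adjusted p = 0.057. In 10 of the 22 alternatives it passed as lower, with values from -0.59 to -0.35, among them the fits without luciferase AK41 (-0.59), without CDK12-2 AK49 or CDK12-6 AK49 (-0.51 each) and without all AK49 libraries (-0.52). In the authors' deposited table its log2 fold change was -0.46 at a false discovery rate of 0.001. TOP2A, the topoisomerase that untangles chromosomes, had 63.8, 84.6 and 67.7 RPKM in the controls, 80.5, 82.7 and 80.8 with CDK12-2, and 89.2, 91.7 and 74.3 with CDK12-6 (0.21 ± 0.105, adjusted p = 0.15). TOP2A passed in 4 of the 22 alternatives, among them the fit without luciferase AK41 (0.33, adjusted p = 0.034). PTTG1, securin, had 54.9 ± 5.81 and 62.4 ± 5.25 RPKM (0.18, adjusted p = 0.17). Separase ESPL1, the condensin subunit NCAPH and shugoshin SGOL1, which protects centromeric cohesin, had changes of -0.05, -0.08 and -0.10 (adjusted p = 0.86, 0.58 and 0.46).

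Across the list, 9 genes had all CDK12 siRNA libraries above all controls and 1, ASPM, had them below, where 14.3% and 19.9% of tested genes did so. Besides the 6 that rose, the 9 held CCNA2, AURKA and KIF2C. Of the 36 genes that did not pass, 31 had a 95% interval within 0.5 log2 units of 0 and 8 within 0.3. The authors' deposited table, at a false discovery rate below 0.05, had 3 listed genes higher and 1 lower, against 13.1% and 21.8% of the tested genes. The 3 were CENPF, CCNB2 and NDC80, and the 1 was CDC20. KIF20A, NUSAP1 and KIF23, which rose in the fit used here, did not pass there, with false discovery rates of 0.052, 0.11 and 0.28. Several listed genes share their span with another gene, with unassignable strand. EXOSC9 held 50.3% as many reads as CCNA2, ITFG2 32.5% as many as FOXM1, and SLC35F6 77.9% as many as CENPA. The number of listed genes called was 2 without luciferase AK39, 3 without all AK39 libraries and 2 without all AK41 libraries. Without luciferase AK41, CDK12-2 AK39 and CDK12-6 AK39, the libraries richest in RNAs without a poly(A) tail, it was 9, with 8 higher and 1 lower. These were the same 6 genes with AURKA and TOP2A higher and CDC20 lower.

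The single siRNAs share the luciferase controls. CDK12-2 alone gave 4 genes higher and 0 lower of the 42, where 9.76% and 15.4% of tested genes were called, and CDK12-6 alone 5 and 0, where the shares were 10.4% and 15.6%. Leaving out libraries moved these counts. For CDK12-2 the count was 2 without luciferase AK39, luciferase AK49, CDK12-2 AK41, CDK12-2 AK49 or all AK39 libraries, 1 without all AK49 libraries and 0 without all AK41 libraries. For CDK12-6 it was 8 without luciferase AK41, 3 without CDK12-6 AK39 or all AK49 libraries, 2 without luciferase AK39, luciferase AK49, CDK12-6 AK41 or all AK39 libraries, and 0 without all AK41 libraries. CENPF, CCNB2, NDC80 and KIF20A passed with both, against 8.69% of tested genes higher with both. Compared directly, CDK12-2 and CDK12-6 differed in 0 of the 42 genes and 0 of 15208 tested genes by limma, with or without voom weights, and at an unadjusted p below 0.05 in 0 and 99. The 95% interval of the difference lay within 0.5 log2 units of 0 for 38 of the 42 and within 0.3 for 18. The point estimates ran from -0.11 to 0.12, with INCENP at the upper end (-0.40 to 0.63). These intervals and unadjusted counts come from the fit without the AK number. In a fit of the 6 CDK12 libraries alone with that number as a block, 0 of the 42 passed, with a lowest adjusted p of 0.61, and 2 of 14821 genes did. At an unadjusted p below 0.05, that fit had 0 of the 42 and 1243 of the 14821 genes.

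Ratios between partner genes were also computed. As ratios of RPKM within a library, chosen after the values were seen and given without a test, NDC80 to NUF2 was 1.22, 1.22 and 1.25 in the controls, 1.7, 1.8 and 1.81 with CDK12-2, and 1.76, 1.79 and 1.85 with CDK12-6. The level of NUF2 in those libraries ranged from 14.1 to 20.4 RPKM, and the ratio stayed within a narrow band in each group. CDCA8 to AURKB was 1.47, 1.49 and 1.47 in the controls and 1.81 to 2.03 in the CDK12 siRNA libraries. CCNB2 to CCNB1 was 0.461, 0.41 and 0.457 against 0.55 to 0.666, and CENPF to CENPE was 0.812, 0.601 and 0.856 against 1.02 to 1.45. SPC24 to SPC25 was 1.31, 1.11 and 1.32 against 1.35 to 1.87, where the groups nearly touched. The ratios of CDCA8 to INCENP, CDC20 to BUB1B and PTTG1 to ESPL1 overlapped between groups.

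**Figure D3:**
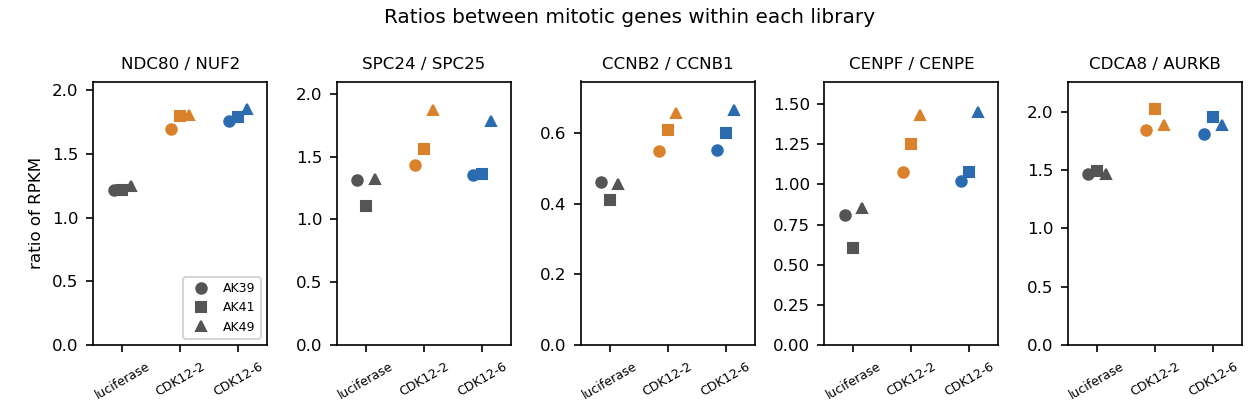
Ratio of RPKM between 5 pairs of listed genes (y axis) in each library, by group (x axis), with the AK number as the symbol. NDC80 to NUF2 lies between 1.22 and 1.25 in the controls and between 1.7 and 1.85 with CDK12 siRNA.

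Within groups, the libraries differed along transcript base composition. The deviation of each gene from its group mean was regressed on the log2 amount of RNA without a poly(A) tail in the library. The slope, in log2 units per doubling of that RNA, ran from -0.38 for FOXM1 to 0.22 for CDK1, with 21 genes positive and 21 negative. Across the 42 genes its Spearman's rho with transcript GC content was -0.82, and across 10999 tested genes with a GC value -0.62. These points share the same 9 libraries, so the values are descriptive. The AT-rich CDK1, CENPE, HMMR, TTK, NUF2 and MAD2L1 had slopes of 0.18 to 0.22. The GC-rich FOXM1, PLK1, ESPL1, CDC20, INCENP and AURKB had slopes of -0.38 to -0.21. Some genes departed from this, with slopes of -0.087 for KIF11 (38.3% GC), -0.104 for SGOL1 (40.9%) and 0.111 for PTTG1 (49.0%). In all 3 groups, 14 genes had their lowest value in the library richest in such RNA, and CENPE had its highest there. The list had a median GC content of 43.2%, from 35.4% to 59.9%, against 49.6% over tested genes. The 6 genes that rose had slopes between -0.04 and 0.15, and the rho of GC content with the log2 fold change was -0.25 over the 42. With that RNA as a covariate, 19 of the 42 passed, 15 higher and 4 lower. The 4 lower were CDC20, ASPM, CENPE and SPC25. Over all 15208 tested genes, that fit called 4469 higher and 4873 lower. The part of library composition in the calls was otherwise not tested.

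**Figure D4:**
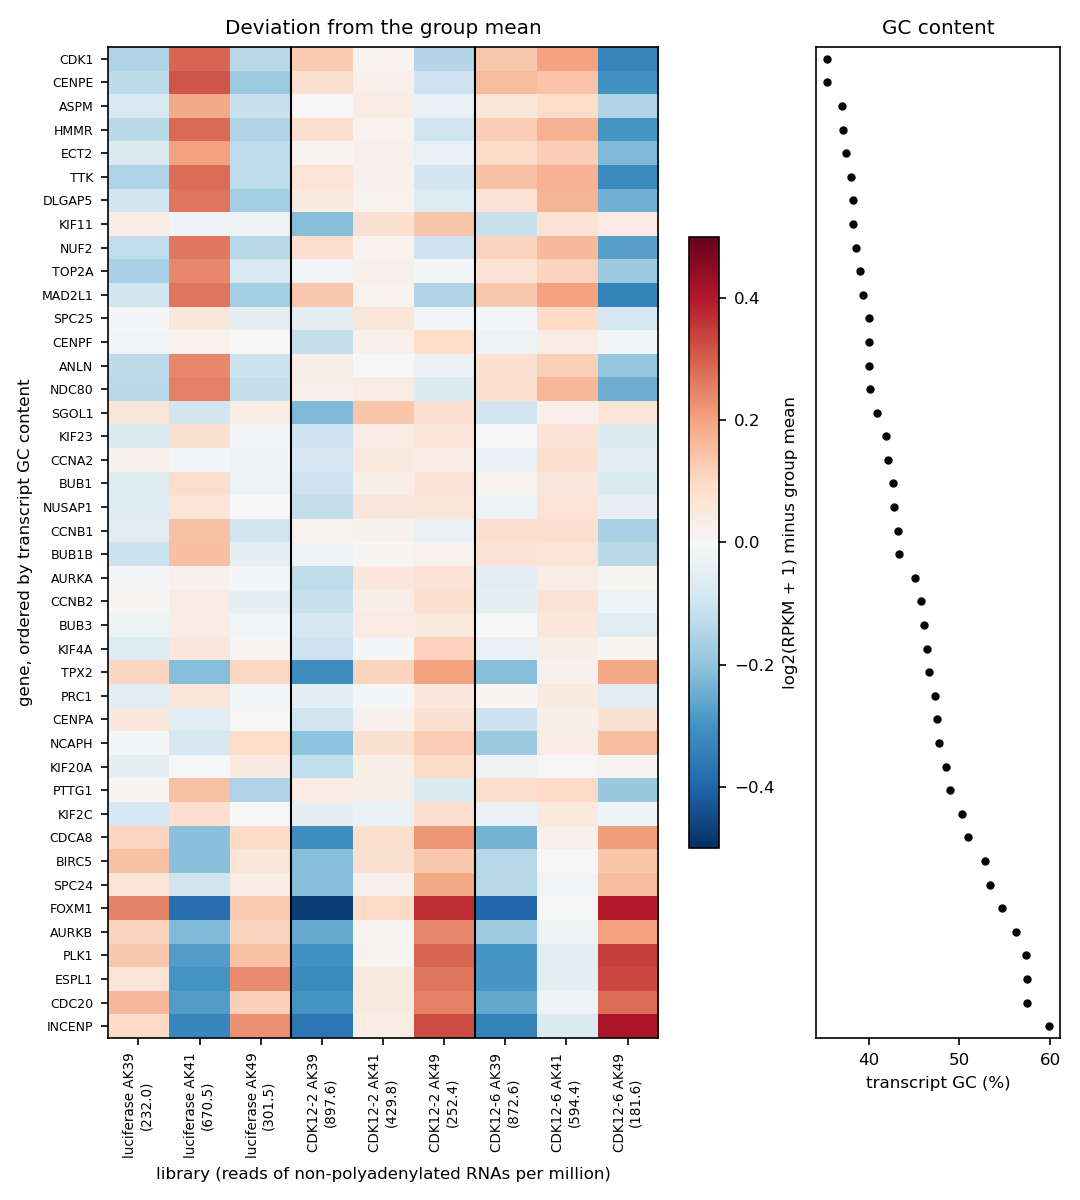
Deviation of each of the 42 genes from its group mean (color, log2(RPKM + 1)) in each library (x axis, with reads of non-polyadenylated RNAs per 1000000), genes ordered by transcript GC content (y axis and right panel, in percent). The GC-rich genes at the bottom are low in luciferase AK41 and in both AK39 libraries of CDK12 siRNA, with FOXM1 the most so.

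Gene size did not go with the change, with a Spearman's rho of 0 for genomic span and 0.04 for listed length over the 42 genes. The heptamer GTGGGCA lay in the annotated 3′ UTR of BUB3, BIRC5 and NCAPH, or 7.14% of the 42, against 16.3% of 10915 tested genes with an annotated 3′ UTR, and none of the 3 passed the test.

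Other genes of mitosis and of the cell cycle, from lists chosen with earlier results of these data known, gave calls in both directions, and their counts are read against the 13.3% of all tested genes called higher and the 19.7% called lower. In the inner centromere and other kinetochore list, 2 of 29 rose and 8 fell, or 6.9% and 27.6%. CENPI, an inner kinetochore subunit, fell from 8.64, 9.48 and 8.35 RPKM in the controls to 4.21 to 4.77 (-0.84 ± 0.0721, adjusted p = 4.2e-05), and MIS18A, which licenses CENPA loading, fell by 0.59 (adjusted p = 0.00038). OIP5, its partner in CENPA loading, rose by 0.39 (adjusted p = 0.0014), and CENPC, which binds CENPA nucleosomes, by 0.32 (0.026). In the anaphase-promoting complex list, 5 of 18, or 27.8%, fell and 0 rose. UBE2S, the ubiquitin-conjugating enzyme that extends its chains, fell from 105.7 ± 9.96 to 69 ± 8.44 RPKM (-0.61, adjusted p = 0.0026), and the subunit CDC26 fell by 0.37 (0.0063). In the cohesin and condensin list, 4 of 21 fell and 0 rose, a share of 19% lower that is close to that of all genes, with the condensin subunit SMC4 at -0.43 (adjusted p = 0.0039) and the cohesin subunit SMC1A at -0.55 (0.018).

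In the list of other spindle, centrosome and cytokinesis genes, 2 of 32 rose and 6 fell, or 6.25% and 18.8%, the latter also close to that of all genes. CEP55, which recruits the abscission machinery to the midbody, had 33.5, 40.4 and 31.8 RPKM in the controls, 11.2, 11.3 and 11.2 with CDK12-2, and 11.6, 13.2 and 10.9 with CDK12-6. That is a change of -1.52 ± 0.0911 (adjusted p = 7e-06), larger than that of any of the 42. The spindle protein CKAP2L fell by 0.46 (0.0018), while the centrosomal kinase NEK2 rose by 0.27 (0.019) and the kinesin KIF18A, which dampens chromosome movements, by 0.35 (0.032). Of 14 regulators of mitotic entry and exit, 2 rose and 1 fell, or 14.3% and 7.14%. WEE1, the kinase that inhibits CDK1, rose by 0.56 (0.0026), CDC25C, the phosphatase that activates it, rose by 0.35 (0.011), and ENSA, an inhibitor of the phosphatase PP2A, fell by 0.26 (0.013). Of 14 tested genes for MuvB, B-MYB, E2F4 and NF-Y factors, among 15 listed, 2 rose and 2 fell, or 14.3% in each direction. RBBP4 (0.34, adjusted p = 0.0058) and TFDP2 (0.37, 0.0086) rose, and LIN52 (-0.22, 0.040) and LIN54 (-0.26, 0.045) fell. Of 20 genes of the G1/S transition, 2 rose and 9 fell, or 10% and 45%, with CCNE1, cyclin E1, at -1.06 (6e-05), the replication factor CDC45 at -0.62 (0.00028), and the helicase subunits MCM2 and MCM6 at 0.54 (0.011) and 0.20 (0.049). These shares were not tested against that of the 42 genes.

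**Figure D5:**
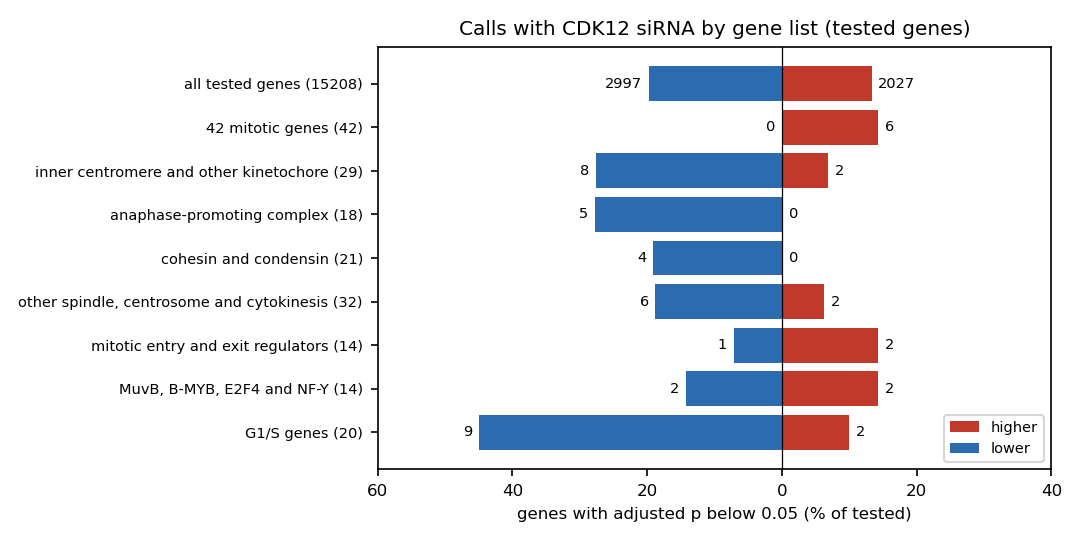
Share of the tested genes of each list called higher or lower with CDK12 siRNA (x axis, percent, higher to the right of 0 and lower to the left, with counts beside the bars), for the 42 mitotic genes, the companion lists and all 15208 tested genes (y axis). The 42 genes have 6 called higher and 0 lower, while the G1/S list has 2 and 9.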

How the data were processed

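RPKM per gene for 9 libraries was analysed as deposited by the authors. The submitters' processing notes name TopHat2, featureCounts, edgeR and hg19, with no order or settings, and no annotation version is given in the sources used here. The authors' deposited log2 fold change had a Pearson r of 0.9999, across genes, with log2 ratios of group means (6 CDK12 libraries to 3 controls), and was taken to be that contrast. The deposited p-values, given as a false discovery rate, come from the authors' own test and differ from those of the fit used here. Per the labels' protocols, RNA was poly(A)-selected with a kit that does not keep strand. Multiplied by listed length plus 1, 100% of RPKM values were whole multiples of 1 read (tolerance 0.001), giving library sizes of 130.7 to 173.4 in units of 1000000 reads.

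log2(RPKM + 1) of genes reaching 1 RPKM in 3 or more libraries was fitted with limma 3.58.1 (R 4.3.3, eBayes with trend), all 9 libraries and 3 groups together, with Benjamini-Hochberg adjustment over 15208 genes. This scale understates changes of genes near 1 RPKM. The model was tested on simulated data. The genes of the list, their roles and the companion lists were chosen with earlier results of these data known. Values per library are given for the genes that passed and the 2 of each role group with the lowest p, and, of each companion list, the 2 with the lowest adjusted p in each direction are named. NUF2, ASPM, the genes that changed call between settings and the ratios were picked after values were seen.

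Same-numbered libraries of both CDK12 siRNAs deviated together for AK39 and AK49 (correlation of deviations from the group mean 0.76 and 0.81). Those of AK41 hardly did (0.13), so the number may pair only some of them. Luciferase AK41 deviated to a like degree with AK39 of CDK12-2 and CDK12-6 (0.74 and 0.8), without a shared number. A block on the AK number was therefore also fitted for the comparison of CDK12-2 with CDK12-6. Alternatives were another pseudocount, filter and scaling, a block, a covariate, and leaving out libraries. GC content and 3′ UTRs were read from GENCODE transcripts by gene identifier. No pair of libraries was a duplicate.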

Additional observations from a re-analysis of the deposited data

How the results depend on the processing

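Each of the 42 genes and 8 counts was recomputed under alternatives: 22 for each gene, 22 or 23 for each count. No called change reversed its sign. Of 924 values of single genes, 854 kept their side of the threshold, 27 lost a call and 43 gained one; a change of sign in a gene that passed under neither fit was not counted as a reversal. Listed genes called for the mean of both siRNAs, CDK12-2 and CDK12-6 (6, 4 and 5 as reported) numbered 12, 10 and 9 when rescaled to reads in listed genes, 13, 11 and 9 after quantile normalization, and 19, 15 and 16 with non-polyadenylated RNA as a covariate. Without the 3 libraries richest in that RNA, an alternative chosen after seeing the data, CDK12-2 had 7. All tested genes with that covariate numbered 9342, 8658 and 8455 (5024, 3828 and 3961 as reported), and CDK12-2 had 5790 after TMM scaling. Same-numbered luciferase and CDK12 libraries deviated together for AK49 (correlation 0.65 with CDK12-2 and 0.75 with CDK12-6). They deviated in opposite directions for AK39 (-0.56 and -0.51), and AK41 was mixed (-0.13 and 0.47). With the AK number as a replicate block 10 listed genes passed, 8 higher and 2, ASPM and CDC20, lower. Over all tested genes that block gave 2520 higher and 3721 lower. The block changed no count of calls in the other comparisons by over 1.5 times except for CDK12-2 against CDK12-6, where 0 genes became 2 in the fit of the 6 CDK12 libraries; there were also 2 without a filter on low values, 1 with the covariate and 1 without the 3 libraries.

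Leaving out 1 library, or 1 AK number in all groups, gave 1628 to 5285 genes and 2 to 8 listed genes for the mean of both, 767 to 4171 and 0 to 6 for CDK12-2, 830 to 4396 and 0 to 8 for CDK12-6, and 0 and 0 between the siRNAs. The lowest counts came without AK41 in all groups, and for listed genes in the mean of both also without luciferase AK39. The cause of these differences was not tested. The planned edgeR and DESeq2 fits were not run, because the deposited unit is RPKM, and limma with voom weights on recovered reads, chosen after seeing the data, gave 5028 genes and 5 listed genes. Each listed gene had 2448 to 100388 reads in a library, and 5 of the 36 that did not pass had 95% intervals that reached beyond 0.5 log2 units.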
